A study of Caenorhabditis elegans with 6 samples.

Results

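The genes described here encode the enzymes that make unsaturated, long and branched-chain fatty acids in *Caenorhabditis elegans*. They were the 7 desaturase genes *fat-1* to *fat-7* and the 3 elongase genes *elo-2*, *elo-5* and *elo-6*, found on the arrays by sequence name. All 10 were present, each with 1 probe, among 18877 genes with a sequence name. All 10 also passed the signal filter, as did 14764 genes in all. RNA levels were compared in 3 kinds of late L4 larvae, *ets-4(uz1)*, *ets-4(ok165)* and wild-type N2, all grown at 20°C on OP50 bacteria from hypochlorite-synchronized populations. *ets-4* encodes a transcription factor of the ETS family. *ets-4(uz1)* lacks most of the coding sequence of the ETS DNA-binding domain and still makes a shortened mRNA, whereas *ets-4(ok165)* lacks the coding sequences of both the ETS and the PNT domain. Each mutant is a single deletion strain that had been outcrossed to N2 6 times, and larvae of both strains grow more slowly than wild type. Each of 6 arrays compared Cy5-labeled cDNA of 1 mutant sample with Cy3-labeled cDNA of 1 wild-type sample, with 3 arrays per mutant strain. Values are log2 ratios of mutant over wild type, so that a negative value is a lower signal in the mutant.

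Palmitic acid, the saturated product of the fatty acid synthase, and stearic acid, made from it by elongation, are the starting material of this pathway. A delta-9 desaturase puts in the first double bond, and the delta-12, delta-6, delta-5 and omega-3 desaturases then add more double bonds in turn, with elongation steps between them, so that the worm makes all its polyunsaturated fatty acids without a dietary source. The delta-9 genes in particular are known targets of transcription factors that adjust membrane fluidity and fat storage, and *fat-7* is expressed in the intestine, the main fat store of the animal.

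All probes were 60 bases long. The *fat-7* probe (F10D2.9), at 7154054 to 7154113 on chromosome V, was spotted 10 times on each array, and the others once. The *fat-5* probe (W06D12.3) lay at 17729239 to 17729298 on chromosome V and the *fat-6* probe (VZK822L.1) at 11913703 to 11913762 on chromosome IV. The other 7 probes were also on chromosome IV, where 3 pairs of members are close neighbors, with 7.65 kb between the probe starts of *fat-1* and *fat-2*, 3.82 kb between *fat-3* and *fat-4* and 12.04 kb between *elo-5* and *elo-6*. These positions come from the array files, whose genome build is not given in the sources used here, so exon or UTR positions were not assigned. *fat-6* and *fat-7* are close relatives in sequence, and cross-hybridization between their transcripts was not tested. No member had a saturated spot, and every spot of a member was well above background. The only oligonucleotides of a member given with the study are those it used to measure *fat-7* by reverse transcription and PCR, shown here because *fat-7* had the largest ratios of the family and was the member that was followed up. They are not the array probe.
reverse transcription primer: gtagtcttgtgggaatgtgtggt
forward primer: ctggaaggagacagcattcattg
reverse primer: ctgtggtaaagacgttctcaacg

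As a check of the labels, *ets-4* had log2 ratios of −3.18, −3.08 and −2.84 on the *ets-4(uz1)* arrays and −3.59, −2.80 and −2.72 on the *ets-4(ok165)* arrays. The probe may lie in deleted sequence, so these values check the strains and not a transcript level. Of the spots that are not controls, 72.8% to 85.4% were well above background in the mutant channel and 68.5% to 72.9% in the wild-type channel. Ratios over all genes correlated at 0.396 to 0.538 among the *ets-4(uz1)* arrays and at 0.118 to 0.345 among the *ets-4(ok165)* arrays. They were narrowest on array 3 of the *ets-4(ok165)* strain, with an SD of 0.330 across genes, and widest on array 2 of *ets-4(uz1)*, with 0.787.

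No member passed the test over all genes in either strain. In *ets-4(uz1)* larvae 0 of the 10 members had an adjusted p under 0.05 (limma, Benjamini-Hochberg), where 522 of 14764 genes did (3.54%), 197 lower and 325 higher. In *ets-4(ok165)* larvae 0 of 10 passed, where 14 genes did (0.0948%), 10 lower and 4 higher, or 8 lower and 1 higher after normexp background correction and loess. At an unadjusted p under 0.05 there were 2 members in each strain, *fat-6* and *fat-7* in *ets-4(uz1)* larvae and *fat-5* and *fat-7* in *ets-4(ok165)* larvae, against backgrounds of 19.6% and 8.14% of genes. The study's own test, Rank Products, called 0 members in *ets-4(uz1)* larvae, where it called 528 of 18877 genes, 221 lower (1.17%) and 307 higher. It called 1 member, *fat-7*, lower in *ets-4(ok165)* larvae, where it called 129 genes, 79 lower (0.418%) and 50 higher. A limma fit blocked by array number called 2293 genes for *ets-4(uz1)* and 49 for *ets-4(ok165)*, and among them was 1 member, *fat-6* in *ets-4(uz1)* larvae. The members' median log2 ratio was −0.11 in *ets-4(uz1)* larvae against −0.12 in *ets-4(ok165)* larvae, against 0.03 and −0.02 over all genes tested.

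**Figure D1:**
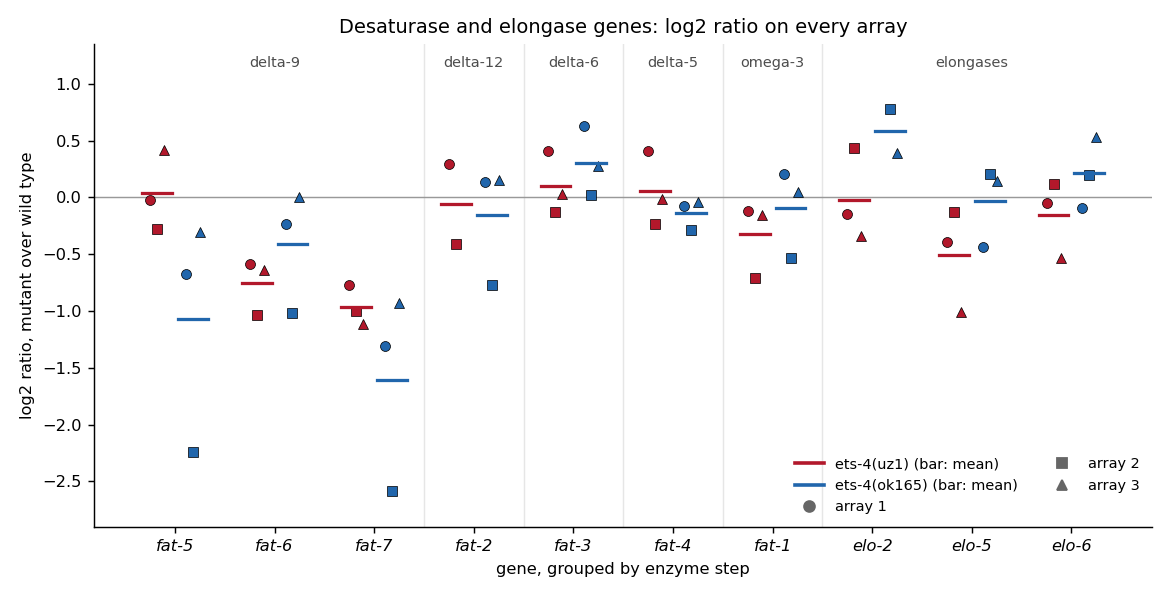
Log2 ratio of mutant over wild type (vertical axis) of the 10 genes (horizontal axis, by enzyme step) on every array, with *ets-4(uz1)* in red left of *ets-4(ok165)* in blue; symbols are array numbers and bars are means. *fat-7* lies below 0 on all 6 arrays, and array 2 of *ets-4(ok165)* gives the lowest values of *fat-5* (−2.24) and *fat-7* (−2.58).

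*fat-7*, which with *fat-6* mainly converts stearic acid to oleic acid, had the lowest mean ratio of the family in both strains. Its log2 ratios were −0.77, −1.0 and −1.11 on the *ets-4(uz1)* arrays. On the *ets-4(ok165)* arrays they were −1.31, −2.58 and −0.93. All 6 values were below 0, the 3 *ets-4(uz1)* values lay close together, and those of *ets-4(ok165)* spread widely, with array 2 far below the others. The mean was −0.96 ± 0.17 in *ets-4(uz1)* larvae (SD, n = 3 arrays), 1.95-fold lower than wild type, with a 95% interval of −1.67 to −0.25 and an adjusted p of 0.143 from limma. In *ets-4(ok165)* larvae it was −1.61 ± 0.87, 3.04-fold lower, with an interval of −2.31 to −0.90 and an adjusted p of 0.287 from limma. That mean ranked 66 of 14764 genes by size, and Rank Products called it lower with a probability of false prediction of 0.025, a call made for 79 of 18877 genes (0.418%). In *ets-4(uz1)* larvae that probability was 0.255. For follow-up the study picked *fat-7* at random among the genes most changed on these same *ets-4(ok165)* arrays. Its place here is therefore no independent evidence. By quantitative PCR in adults, a later stage, the paper reports *fat-7* significantly lower in *ets-4(ok165)* worms and does not list it for *ets-4(uz1)* worms. Without array 2 of *ets-4(ok165)* its mean there was −1.12. Its *ets-4(uz1)* mean stayed at −0.96 but then passed limma's test (adjusted p = 0.0342), as 594 of 14764 genes did. The 10 spots of an array differed little, with SDs of 0.0124 to 0.0534, so the spread was between arrays and not between spots. In RNA of whole larvae, fewer cells that express a gene and less RNA per cell cannot be told apart. Because the dyes were never swapped, any dye effect of a probe is part of each of these ratios.

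The signals behind these ratios varied widely among the wild-type samples. Scaled to the 75th percentile of its channel, the *fat-7* log2 signal was 2.28, 1.497 and −0.18 in *ets-4(uz1)* larvae, against 3.08, 2.49 and 0.94 in the wild-type larvae on the same arrays. It was 1.84, 0.05 and −0.04 in *ets-4(ok165)* larvae, against 3.14, 2.62 and 0.91 in their wild-type larvae. In both strains the mutant was the lower sample on each array, while across arrays the groups overlapped, since wild-type larvae of both arrays 3 had less signal than *ets-4(uz1)* larvae of arrays 1 and 2. The means were 1.20 ± 1.26 in *ets-4(uz1)* larvae against 0.62 ± 1.06 in *ets-4(ok165)* larvae (SD, n = 3 each) and 2.19 ± 1.02 in wild type (n = 6), and no neighbors in that order were separated by more than their SDs. Wild-type *fat-7* spanned a 4.70-fold range over the 6 arrays. Its SD exceeded that of 96.1% of genes, whose median was 0.391. Between arrays of the same number the wild-type signals of the delta-9 genes were close, differing by at most 0.13 for *fat-7*, 0.06 for *fat-6* and 0.05 for *fat-5*, against a median of 0.262 over genes. *elo-5*, *fat-2* and *fat-3* differed by up to 0.441, 0.354 and 0.313, more than that median. Whether such arrays received the same wild-type RNA is not given in the sources used here.

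**Figure D2:**
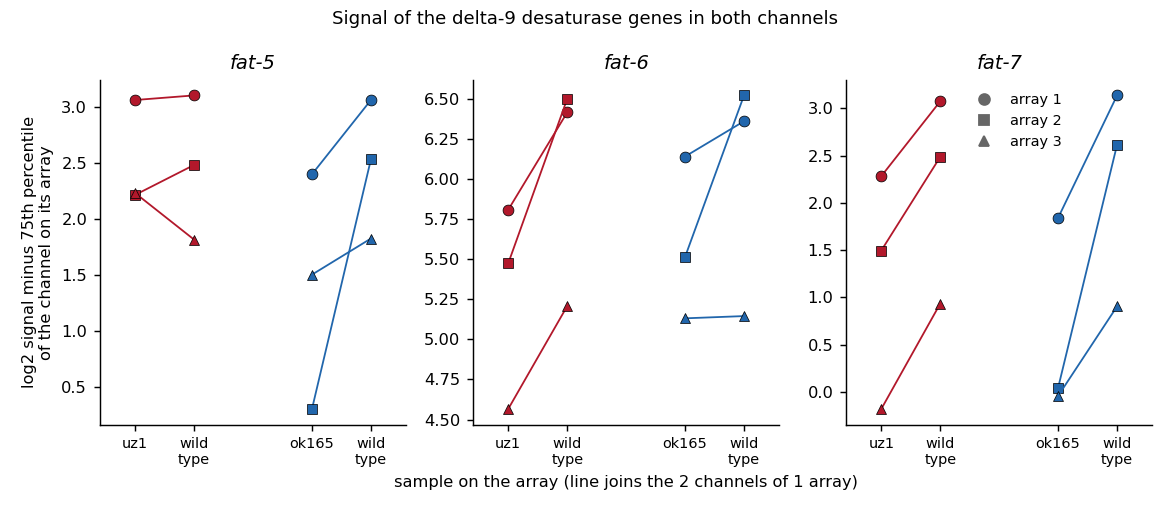
Scaled log2 signal (vertical axis) of *fat-5*, *fat-6* and *fat-7* in mutant and wild-type larvae, with a line joining the 2 samples of 1 array; red is *ets-4(uz1)*, blue is *ets-4(ok165)* and symbols are array numbers. Each mutant *fat-7* point is below its own wild-type point, and the wild-type *fat-7* signals are 3.08 and 3.14 on the arrays numbered 1 and 0.94 and 0.91 on those numbered 3.

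*fat-6* encodes the other stearic acid desaturase. Its log2 ratios were −0.59, −1.03 and −0.64 on the *ets-4(uz1)* arrays. On the *ets-4(ok165)* arrays they were −0.23, −1.02 and 0.0045. All 3 *ets-4(uz1)* values were negative, and in *ets-4(ok165)* larvae the gene was clearly below wild type on array 2 only. The mean was −0.75 ± 0.24 in *ets-4(uz1)* larvae (interval −1.28 to −0.22, limma adjusted p = 0.129), 1.69-fold lower. In the fit blocked by array number it passed (limma adjusted p = 0.0273), but that fit called 8.32% of all genes lower. In *ets-4(ok165)* larvae the mean was −0.42 ± 0.54 (limma adjusted p = 0.675), and −0.11 without array 2.

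*fat-5* encodes the palmitic acid desaturase, the third enzyme that makes a first double bond. Its log2 ratios were −0.02, −0.28 and 0.42 on the *ets-4(uz1)* arrays, around a mean of 0.04 ± 0.35 (interval −0.80 to 0.88). On the *ets-4(ok165)* arrays they were −0.67, −2.24 and −0.30, each below every *ets-4(uz1)* value. The *ets-4(ok165)* mean was −1.07 ± 1.03, 2.1-fold lower, with an interval of −1.91 to −0.23 and an adjusted p of 0.566 from limma. Array 2 weighed heavily in that mean, which was −0.49 without it.

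The later desaturase genes had mean ratios nearer to 0 than *fat-7*. *fat-2*, the delta-12 desaturase that turns oleic into linoleic acid, had log2 ratios of 0.29 and −0.41 on arrays 1 and 2 of *ets-4(uz1)*, with the spot of array 3 left out as an outlier. On the *ets-4(ok165)* arrays it had 0.14, −0.77 and 0.15. *fat-3*, the delta-6 desaturase, had 0.41, −0.13 and 0.03 in *ets-4(uz1)* and 0.63, 0.02 and 0.27 in *ets-4(ok165)* larvae, the only member above 0 on all 3 arrays of a strain, as were 14.8% of genes on the *ets-4(ok165)* and 20.5% on the *ets-4(uz1)* arrays. *fat-4*, the delta-5 desaturase of arachidonic and eicosapentaenoic acid synthesis, had 0.41, −0.24 and −0.01 in *ets-4(uz1)* and −0.08, −0.29 and −0.04 in *ets-4(ok165)* larvae. *fat-1*, which converts omega-6 into omega-3 fatty acids, had −0.12, −0.71 and −0.15 in *ets-4(uz1)* and 0.21, −0.53 and 0.05 in *ets-4(ok165)* larvae. Array 2 gave the lowest value of these 4 genes in both strains. Their mean ratios lay between −0.33 and 0.10 in *ets-4(uz1)* larvae (limma adjusted p of 0.425 to 0.930) and between −0.16 and 0.31 in *ets-4(ok165)* larvae (0.7097 to 0.929). For *fat-4* in *ets-4(ok165)* larvae the interval was −0.54 to 0.27.

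Array 2, the lowest for the desaturase genes just described, gave the lowest value of no elongase gene in either strain. *elo-2*, which lengthens palmitic to stearic acid, had log2 ratios of −0.15, 0.43 and −0.34 in *ets-4(uz1)* larvae and 0.78 and 0.39 on arrays 2 and 3 of *ets-4(ok165)*, the spot of array 1 being left out as an outlier. *elo-5*, needed for branched-chain fatty acids, had −0.40, −0.13 and −1.01 in *ets-4(uz1)* and −0.44, 0.21 and 0.14 in *ets-4(ok165)* larvae. *elo-6*, which acts after *elo-5* on branched chains, had −0.05, 0.12 and −0.53 in *ets-4(uz1)* and −0.09, 0.19 and 0.54 in *ets-4(ok165)* larvae. In *ets-4(uz1)* larvae array 2 was the highest of the 3 for each elongase and array 3 the lowest. The mean of *elo-5* there was −0.51 ± 0.45 (interval −1.03 to 0.0089, limma adjusted p = 0.264), the lowest of the elongases, but −0.26 without array 3 and −0.25 with slide as a fixed block. *elo-2* had the highest mean of the family in *ets-4(ok165)* larvae, 0.59 ± 0.28 on 2 arrays (limma adjusted p = 0.615). It was 0.37 with the outlier spot kept, 0.39 in the series value table and 0.39 without array 2, where *fat-3*, at 0.45, was higher. Over the whole family, 4 of the 9 members measured on all 3 *ets-4(uz1)* arrays were below 0 on each (*fat-1*, *fat-6*, *fat-7* and *elo-5*), where 19.4% of genes were, and 3 of 9 on the *ets-4(ok165)* arrays (*fat-4*, *fat-5* and *fat-7*), where 15.1% were.

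A dye effect of a probe that is the same on every array cancels in the difference between the strains, *ets-4(uz1)* minus *ets-4(ok165)*. Dye effects that differ between arrays were not tested. None of the 10 members passed the test of this difference in the main fit (limma adjusted p of 0.771 to 0.960, with 0 at an unadjusted p under 0.05, against 6.75% of genes). Of 14764 genes 24 did (0.163%), and 92 did in the fit blocked by array number. At an unadjusted p under 0.05 that blocked fit had 1 member and 2613 genes. With scan date as a random block there were 3 members and 3015 genes. No member passed in any alternative fit, where the lowest limma adjusted p was 0.0729, for *fat-5*. *fat-5* had the largest difference, 1.11 (interval −0.08 to 2.30). Between arrays of the same number, which apart from arrays 1 also shared a scan date, it was 0.65, 1.96 and 0.72, above 0 in each pair. Without array 2 of *ets-4(ok165)* it was 0.53, and *fat-6*, at −0.64, was then the farthest of the 10 from 0. For *fat-7* the difference was 0.64 (interval −0.36 to 1.65), with 0.53, 1.58 and −0.18 in the pairs and 0.16 without array 2 of *ets-4(ok165)*, and for *fat-6* it was −0.34 (interval −1.09 to 0.41), with −0.36, −0.02 and −0.64. *elo-2* and *elo-5* had differences of −0.61 (interval −1.40 to 0.19) and −0.48 (interval −1.21 to 0.26). Of the 8 members measured in all 3 pairs, *fat-1*, *fat-3* and *fat-6* were below 0 in each, where 20.8% of genes were, and *fat-4* and *fat-5* above 0, where 23.8% were. The intervals of *fat-2* and *elo-6* were −0.88 to 1.07 and −1.01 to 0.29. For *fat-2*, *fat-5*, *fat-6*, *fat-7*, *elo-2*, *elo-5* and *elo-6* the interval holds both no difference and one of 2-fold.

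**Figure D3:**
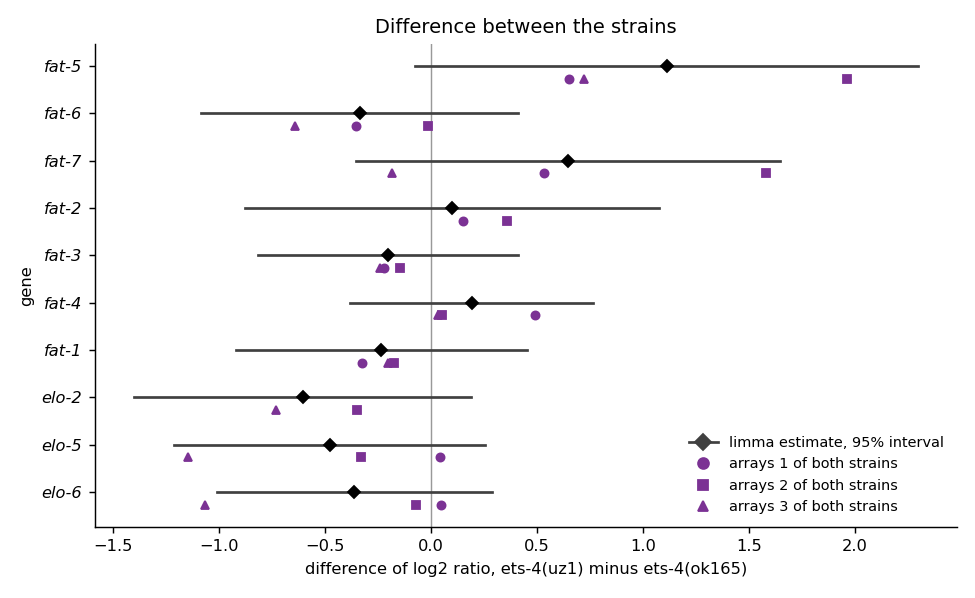
Difference of the log2 ratio, *ets-4(uz1)* minus *ets-4(ok165)* (horizontal axis), of each gene (vertical axis), as limma's estimate with its 95% interval (diamond and line) and between arrays of the same number (symbols). Every interval includes 0, and *fat-5* is farthest from it.

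Markers of the intestine were lowest on array 2 of each strain, as *fat-1* to *fat-6* were, with *fat-2* unmeasured on array 3 of *ets-4(uz1)*. *fat-7* was lowest on array 2 in *ets-4(ok165)* larvae only. All 10 intestine markers were measured (9 of them on array 1 of *ets-4(ok165)*), and the mean of their log2 ratios was −0.29, −1.0 and −0.03 on the *ets-4(uz1)* arrays and 0.07, −0.56 and 0.10 on the *ets-4(ok165)* arrays. On array 2 of each strain all 10 were below 0. None passed limma's test in either strain (0 of 10 in each, 1 and 0 at an unadjusted p under 0.05, with backgrounds of 19.6% and 8.14%). The list also held 0 calls by Rank Products, but 2 of its genes, *elt-7* and *mtl-2*, were lower in *ets-4(uz1)* larvae in the blocked fit, which called 8.32% of all genes lower there. The medians of the 10 markers were −0.42 in *ets-4(uz1)* larvae against −0.08 in *ets-4(ok165)* larvae. Relative to the mean of these markers on the same array, a measure chosen after the values were seen, *fat-7* averaged −0.52 ± 0.54 in *ets-4(uz1)* larvae against −1.48 ± 0.51 in *ets-4(ok165)* larvae. On that scale *fat-6* averaged −0.31 ± 0.29 and −0.29 ± 0.18, and *fat-5* 0.48 ± 0.23 and −0.94 ± 0.66. By array, *fat-7* was −0.48 and −1.08 relative to the markers on arrays 1 and 3 of *ets-4(uz1)* and at their level on array 2, and −1.38, −2.03 and −1.03 on the *ets-4(ok165)* arrays. *fat-6* was −0.295, −0.035 and −0.609 on the *ets-4(uz1)* arrays against −0.305, −0.461 and −0.0955 on the *ets-4(ok165)* arrays. On both arrays 3 *fat-7* was thus about equally far below the markers. The part of intestinal tissue content in these ratios was not tested.

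**Figure D4:**
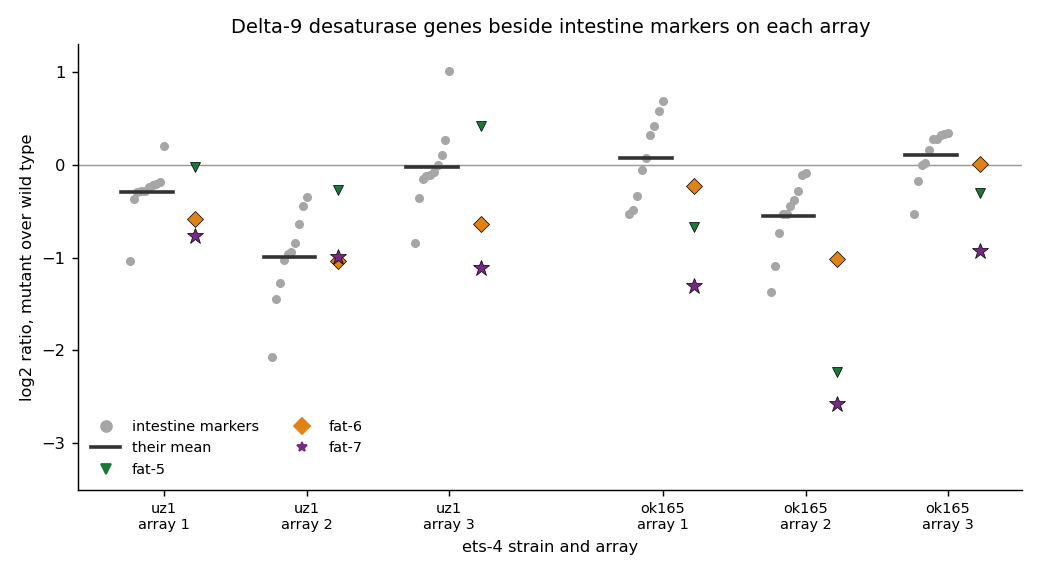
Log2 ratio of mutant over wild type (vertical axis) of *fat-5*, *fat-6* and *fat-7* (colored symbols) and of the intestine markers (gray points, bar for their mean) on each array, *ets-4(uz1)* left of *ets-4(ok165)*. The markers are lowest on array 2 of each strain, and *fat-7* lies below their mean on each array but array 2 of *ets-4(uz1)*, where it is at their mean.

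Among the markers of stage and other tissues 2 single genes passed limma's test. *col-19*, a collagen gene of the adult cuticle that turns on around the last molt, fell in *ets-4(uz1)* larvae (−3.25 ± 0.31, limma adjusted p = 0.00747), with −0.77 ± 0.99 in *ets-4(ok165)* larvae (limma adjusted p = 0.618), and *dpy-7*, an epidermal collagen gene, rose in *ets-4(uz1)* larvae (1.63 ± 0.37, limma adjusted p = 0.0320). The adult cuticle genes *bli-1* and *bli-2* had higher means in *ets-4(uz1)* larvae, 0.89 ± 0.36 and 0.74 ± 0.46 (limma adjusted p = 0.0765 and 0.137), unlike *col-19*. The remaining adult cuticle gene, *col-7*, had a mean below 0 there like *col-19*, −0.76 ± 1.38. Its values spread widely, with −0.35, 0.36 and −2.30 on the *ets-4(uz1)* arrays. *col-19* and *dpy-7* were the only limma calls among the 39 markers measured outside the intestine list. The blocked fit called 8 of the 39 higher and 2 lower in *ets-4(uz1)* larvae, where it called 7.21% and 8.32% of all genes. Their list medians in *ets-4(uz1)* and *ets-4(ok165)* larvae were 0.38 and 0.19 for epidermis, −0.01 and 0.42 for adult cuticle, and 0.63 and 0.16 for body wall muscle. The medians were 0.06 and 0.78 for pharynx and 0.04 and 0.15 for neurons. Germ line markers had medians of 0.47 and −0.47 for oocytes and 0.15 and −0.08 for sperm. Their part in the desaturase ratios was not tested.

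The genes around the pathway gave no calls in the main limma fit or by Rank Products. Of 31 measured genes in 5 lists, 0 passed limma's test in any comparison and 0 were called by Rank Products, and at an unadjusted p under 0.05 there were 9 in *ets-4(uz1)* larvae against 1 in *ets-4(ok165)* larvae, where 19.6% and 8.14% of all genes were. Among 11 regulators of desaturase transcription the 2 with the largest ratios were *nhr-13*, a nuclear receptor gene, and *sbp-1*, the worm SREBP gene. *nhr-13* had −0.90, −1.38 and −0.37 in *ets-4(uz1)* larvae (limma adjusted p = 0.134) and 0.12, −0.97 and −0.11 in *ets-4(ok165)* larvae. *sbp-1* had −0.91, −0.72 and −0.54 in *ets-4(uz1)* larvae (limma adjusted p = 0.0804) and −0.29, −0.60 and 0.05 in *ets-4(ok165)* larvae. Both were below wild type on all 3 *ets-4(uz1)* arrays, as 19.4% of genes were. In the fit blocked by array number both passed there (limma adjusted p = 0.0250 and 0.0273). That fit called 2 of the 31 genes higher and 2 lower in *ets-4(uz1)* larvae, where it called 7.21% and 8.32% of all genes. The regulators had a median of −0.24 in *ets-4(uz1)* larvae against −0.08 in *ets-4(ok165)* larvae.

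Of 9 genes of the fatty acid synthase and its partners, *fasn-1*, the synthase itself, had 0.56, 0.73 and 0.22 in *ets-4(uz1)* larvae (limma adjusted p = 0.231, and 0.0488 in the blocked fit) and 0.84, 0.74 and 0.07 in *ets-4(ok165)* larvae (limma adjusted p = 0.584). It was above wild type on all 6 arrays. The blocked fit called 7.21% of all genes higher in *ets-4(uz1)* larvae. *acly-2*, an ATP citrate lyase gene, averaged 0.72 ± 0.69 in *ets-4(uz1)* larvae against 0.11 ± 0.34 in *ets-4(ok165)* larvae. This list had medians of −0.06 and 0.04. Of 4 other elongase genes measured, *elo-4* averaged 0.64 ± 0.38 in *ets-4(uz1)* larvae against 0.38 ± 0.44 in *ets-4(ok165)* larvae, and *elo-3* −0.39 ± 0.36 and −0.19 ± 0.51, with list medians of −0.40 and 0.13. *elo-9*, named after its values were seen, was below 0 on each *ets-4(uz1)* array (−0.57 ± 0.18, limma adjusted p = 0.233), with 0.34 ± 0.58 in *ets-4(ok165)* larvae. The 4 genes listed under branched-chain precursor supply, which include *acs-1* although it acts on the fatty acids themselves, had medians of −0.42 and −0.10. Among them *bckd-1A*, a subunit gene of the branched-chain keto acid dehydrogenase, averaged −0.48 ± 0.18 in *ets-4(uz1)* larvae against −0.27 ± 0.06 in *ets-4(ok165)* larvae, there on 2 arrays, and *acs-1*, which encodes an acyl-CoA synthetase that activates branched-chain fatty acids, −0.44 ± 0.56 and −0.12 ± 0.27. Of 3 sphingolipid genes *fath-1*, a fatty acid hydroxylase gene, averaged 0.57 ± 0.29 in *ets-4(uz1)* larvae (limma adjusted p = 0.132, and 0.0374 in the blocked fit) and 0.10 ± 0.20 in *ets-4(ok165)* larvae. *ttm-5*, a desaturase gene of ceramide synthesis, averaged −0.21 ± 0.51 and 0.18 ± 0.35, and the list medians were −0.03 and 0.10.

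Likeness to the delta-9 genes was measured as the root mean square difference of log2 ratios over the 6 arrays, among 14584 genes with a value on each. *fat-6* had the closest match, *clec-48*, a C-type lectin gene, at a difference of 0.0435, with ratios of −0.54, −1.12 and −0.62 on the *ets-4(uz1)* and −0.24, −0.99 and −0.03 on the *ets-4(ok165)* arrays. *F52B11.5* and *D2007.1* came next, at 0.0898 and 0.0989. The nearest genes to *fat-7* were farther away, *lys-6*, a lysozyme gene, at 0.337, *hrg-3*, a heme transport gene, at 0.411 and *T22B7.7* at 0.432. *lys-6* had −0.81, −1.25 and −0.51 on the *ets-4(uz1)* and −1.06, −2.15 and −0.82 on the *ets-4(ok165)* arrays, lowest on array 2 of *ets-4(ok165)* like *fat-7*. For *fat-5* they were *C27A7.8* at 0.276, *W04G5.10* at 0.335 and *clc-24*, a claudin-like gene, at 0.374. *C27A7.8* had its lowest ratio, −1.91, on array 2 of *ets-4(ok165)* as well, where *fat-5* and *fat-7* had theirs. Both *lys-6* and *C27A7.8* were picked by these same 6 ratios, so a shared lowest array follows from that choice. The differences were not scaled to the size of a gene's ratios, which were largest for *fat-7*. *fat-7* was not among the 3 genes nearest to *fat-5* or *fat-6*.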

How the data were processed

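The arrays were Agilent *C. elegans* arrays. The deposited intensity values of each spot, in Cy3 for wild type and Cy5 for mutant, were extracted by the authors with Agilent Feature Extraction, and signals given here are log2 of the processed signal, which has background removed and dyes normalized. The authors' log10 ratio of each spot, mutant over wild type, had its background subtracted and its dyes normalized by lowess on that array. A deposited series table gives the same ratios as log2 values per probe and was tried as an alternative. The file headers name version 8.5.1.1 for array 1 of each strain and 9.1.3.1 for the others. Slide 1 held arrays 1 of both strains, slide 2 arrays 2 and 3 of *ets-4(ok165)* and slide 3 arrays 2 and 3 of *ets-4(uz1)*. There was no dye swap.

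Log10 ratios were converted to log2, control and outlier spots left out, and spots of a probe averaged. A gene was kept if 3 or more of the 6 arrays showed it well above background in one channel or the other, and its brightest probe was taken. limma (version 3.58.1, R version 4.3.3) fitted all arrays with 1 mean per strain, tested against 0, with 4 residual and 3.19 prior degrees of freedom and Benjamini-Hochberg adjustment over 14764 genes. Rank Products used 100 permutations, no filter and a probability of false prediction under 0.1. The steps were tested on simulated data with known changes. The simulated arrays were independent of each other, so the test did not cover the correlation between same-numbered arrays given below. Gene names came from 18124 matches to RefSeq locus tags. The methods describe the arrays as independent repeats. Deviations from the strain means were correlated between same-numbered arrays (r = 0.513, 0.687 and 0.292 across genes), so a fit blocked by array number was also made. All members, with every array's value, are named; of each pathway list the genes that passed and the 2 with the largest absolute mean ratio over all arrays of both strains that measured them are named, and for *fat-5*, *fat-6* and *fat-7* the 3 genes of nearest pattern. Members, pathway lists (other elongases, fatty acid synthase and partners, branched-chain precursor supply, sphingolipid genes, regulators) and marker lists (intestine, epidermis, adult cuticle, body wall muscle, pharynx, neurons, oocytes and germ line, sperm) were chosen with earlier results of these data known.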

Additional observations from a re-analysis of the deposited data

Results flagged for a closer look

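In the wild-type signal of *fat-2*, 1 of 5 samples stood apart from the rest. Scaled to the 75th percentile of the channel, the log2 signals were 5.55 and 5.56 on arrays 1 and 2 of *ets-4(uz1)* and 5.66, 5.92 and 4.39 on arrays 1, 2 and 3 of *ets-4(ok165)*. The gap of the lowest sample to its neighbor was 0.762 of the whole range. Chance sets apart about 1 in 20 such groups, and array 3 of *ets-4(uz1)* gave no value for *fat-2*. Every other member also had its lowest wild-type signals on both arrays numbered 3. *fat-1*, for example, had 4.15 on array 3 of *ets-4(uz1)* and 4.07 on that of *ets-4(ok165)*, against 5.05 to 5.46 on the other arrays.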

How the results depend on the processing

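The members' 604 values under alternatives kept their direction and their side of the threshold in 582 cases, reversed in 19 and passed the threshold in 3. Those 3 were *fat-7* in *ets-4(ok165)* larvae by Rank Products, *fat-6* in *ets-4(uz1)* larvae with the replicate block and *fat-7* in *ets-4(uz1)* larvae without array 2 of *ets-4(ok165)*. The members called thus numbered 1 by Rank Products for *ets-4(ok165)*, 1 with the replicate block for *ets-4(uz1)* and 0 to 1 there with any single array left out. The block changed no other call of a member. No cause was tested. Fits of each strain alone and Rank Products give no difference between strains, and the trended fit took only genes with all 6 values, which left out *fat-2* and *elo-2*.

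Counts over all genes moved more. For *ets-4(uz1)* limma called 2293 genes with the replicate block, 128 without the signal filter, 47 with trended robust moderation, 0 with slide as a fixed block (1500 at an unadjusted p under 0.05) and 60 to 594 with any single array left out. For *ets-4(ok165)* the counts were 49 with the block, 9 after normexp and loess, 9 with both channels above background, 1 without the filter, 1 with each strain fitted alone, 0 with trended robust moderation (913 unadjusted), 0 with slide as a fixed block (1023 unadjusted) and 1 to 11 with an array left out, and Rank Products called 129. For *ets-4(uz1)* minus *ets-4(ok165)* they were 92 with the block, 554 with scan date as a random block and 1 without the filter. They were 7 after normexp and loess (0 lower and 7 higher, against 7 and 17) and 7 with trended robust moderation. They were 0 with slide as a fixed block (665 unadjusted) and 0 to 18 with an array left out.

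Small ratios changed sign. With the replicate block *fat-2* in *ets-4(uz1)* larvae was 0.10. With scan date as a random block it was 0.15, and *elo-5* in *ets-4(ok165)* larvae was 0.030. With slide as a fixed block *fat-5* and *elo-6* in *ets-4(uz1)* larvae were −0.19 and 0.054, and the differences between the strains of *elo-5* and *elo-6* were 0.042 and 0.048. With single arrays left out, values in *ets-4(uz1)* larvae ranged over −0.41 to 0.29 for *fat-2*, −0.049 to 0.22 for *fat-3*, −0.12 to 0.20 for *fat-4*, −0.15 to 0.20 for *fat-5*, −0.25 to 0.14 for *elo-2* and −0.29 to 0.038 for *elo-6*. In *ets-4(ok165)* larvae they ranged over −0.24 to 0.13 for *fat-1*, −0.31 to 0.15 for *fat-2* and −0.15 to 0.17 for *elo-5*. The difference between the strains ranged over −0.25 to 0.45 for *fat-2*. The 3 arrays per strain limit the precision of every value here.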
